A study of Mus musculus with 12 samples.

Results

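The 10 genes described here are grouped under signalling of the interleukin-6 (IL-6) family, although Stat6 is best known from other cytokines. The group holds the ligands Il6 and Lif, the receptors Il6ra, Lifr, Osmr, Cntfr and Il6st, and the inhibitor Socs3. Its transcription factors are Stat3 and Stat6. The 10 genes were chosen by symbol from the 55376 symbols of a gene count table, and 9 of the 10 passed the filter on low counts. That filter asked for 1 CPM (a count scaled to a common library size) or more in at least 4 of the 12 samples. Il6 did not pass and is described by its counts. RNA-Seq was performed on cells of C57BL/6 mouse brain at postnatal day 40 that were sorted for O1, a surface lipid of oligodendrocytes, and against CD45, a surface protein of leukocytes. Each sample held the cells of 2 brains, and each of the 3 genotypes had 4 samples. WT mice carried no mutation that the labels name. Cnp-Cre Jab1fl/fl mice express the Cre recombinase from Cnp, a gene of oligodendrocytes, which deletes both floxed copies of Jab1 (gene symbol Cops5), a subunit of the COP9 signalosome. Cnp-Cre Jab1fl/fl p21CIP1-/- mice, called double mutants below, have the same deletion and in addition lack p21CIP1 (gene symbol Cdkn1a), a cell cycle inhibitor, in every cell of the body and not only in oligodendrocytes.

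Cytokines of the IL-6 family bind a private receptor on the cell surface and then draw in the shared signalling chain gp130, the product of Il6st. The associated Janus kinases then phosphorylate STAT3, which enters the nucleus and switches on target genes, among them Socs3, whose product blocks the receptor and closes the loop. STAT6 is best known from interleukin-4 and interleukin-13 signalling. In the brain, LIF and CNTF are known to promote the survival and maturation of oligodendrocytes, whereas IL-6 and its private receptor are best known from glia and immune cells during inflammation.

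Total counts per sample ranged from 61485556 to 153495112. As a check of the labels, Cops5 had 46.4 to 134 CPM in WT, 45.1 to 89.3 CPM in Cnp-Cre Jab1fl/fl and 44.4 to 90.7 CPM in double mutants, so the groups overlapped. Cdkn1a had 16.0 to 85.6 CPM in WT, 380.1 to 639 CPM in Cnp-Cre Jab1fl/fl and 64.9 to 104 CPM in the libraries labelled double mutant, where it was not at 0. Counts over a whole gene do not separate deleted from remaining exons, so neither gene settles a genotype, and "double mutants" refers to the labels throughout. The 14 markers of mature oligodendrocytes summed to 48260 to 113300 CPM in WT, 9360 to 36720 CPM in Cnp-Cre Jab1fl/fl and 17550 to 55580 CPM in double mutants. The 20 microglia markers summed to 156 to 373 CPM in WT, 1374 to 3448 CPM in Cnp-Cre Jab1fl/fl and 532 to 23650 CPM in double mutants, where replicate 3, with the highest sum, stood apart from the other libraries.

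Il6ra and Stat6 were the 2 members that rose in the sorted Cnp-Cre Jab1fl/fl cells. Socs3 had its 4 mutant samples above the 4 of WT without reaching the threshold in the main test. The promoters of these genes are shown because they had the highest fold changes of the 9 tested members in this mutant, and the STAT site searched for has the letters TTCNNNGAA, the form bound by most STATs, or the same letters with a spacer longer by 1 base, a form that STAT6 also binds. Both motifs read the same on either strand. Among the 32817 RefSeq promoters of 250 bases (GRCm38.p6), 7.01% held the first and 5.85% the second. All 10 members were matched to a RefSeq start, and Socs3 was the member with a match, to the first motif, shown in capitals. The first base of the match lies 154 bases before the RefSeq start. The GENCODE start of Socs3, at 117970047, is farther upstream, so this stretch lies within the GENCODE span of the gene. The stretches are Il6ra chr3:89913197-89913446 on the reverse strand, Stat6 chr10:127642736-127642985 on the forward strand and Socs3 chr11:117969452-117969616 on the reverse strand, for Socs3 the 165 bases of the window that no GENCODE exon covers. A match is a run of letters, not a bound site.
Il6ra: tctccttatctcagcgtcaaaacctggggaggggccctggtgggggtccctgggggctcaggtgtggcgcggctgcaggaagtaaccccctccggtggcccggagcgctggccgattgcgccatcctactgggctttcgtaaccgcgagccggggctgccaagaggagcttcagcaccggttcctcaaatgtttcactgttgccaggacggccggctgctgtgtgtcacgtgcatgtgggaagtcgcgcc
Stat6: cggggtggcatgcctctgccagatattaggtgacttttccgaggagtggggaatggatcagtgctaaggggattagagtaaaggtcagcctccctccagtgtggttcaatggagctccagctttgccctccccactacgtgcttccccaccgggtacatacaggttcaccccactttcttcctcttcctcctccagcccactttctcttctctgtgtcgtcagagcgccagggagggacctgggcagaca
Socs3: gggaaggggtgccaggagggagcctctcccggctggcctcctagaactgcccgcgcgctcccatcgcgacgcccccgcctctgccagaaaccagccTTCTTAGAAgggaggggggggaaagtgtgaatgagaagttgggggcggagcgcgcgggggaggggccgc

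Whether the family changed in the sorted cells of Jab1 mutants was asked by comparing Cnp-Cre Jab1fl/fl with WT. Of the 9 members tested, 2 rose (Il6ra and Stat6) and 0 fell at an adjusted p below 0.05 (edgeR's quasi-likelihood test, Benjamini-Hochberg over 17716 genes). Among all genes tested, 5.19% rose and 2.46% fell. The unadjusted p was below 0.05 for 3 members in the upward and 1 in the downward direction, beside 13.2% and 9.3% of all genes. DESeq2 and limma-voom each called 3 members higher (Socs3 in addition) and 0 lower, where DESeq2 called 9.52% of all genes higher and 5.66% lower and limma-voom 7.38% and 3.47%. The 9 members had a median log2 fold change of 0.22, beside a median of 0.02 over all genes tested. All mutant samples lay above all WT samples for Il6ra, Stat6 and Socs3, a pattern found in 9.9% of all genes, and for 0 members did they all lie below, beside 7.24% of all genes. In sorted cells pooled before sequencing, fewer cells of a type and less RNA per cell cannot be told apart, and this holds for every value below.

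**Figure D1:**
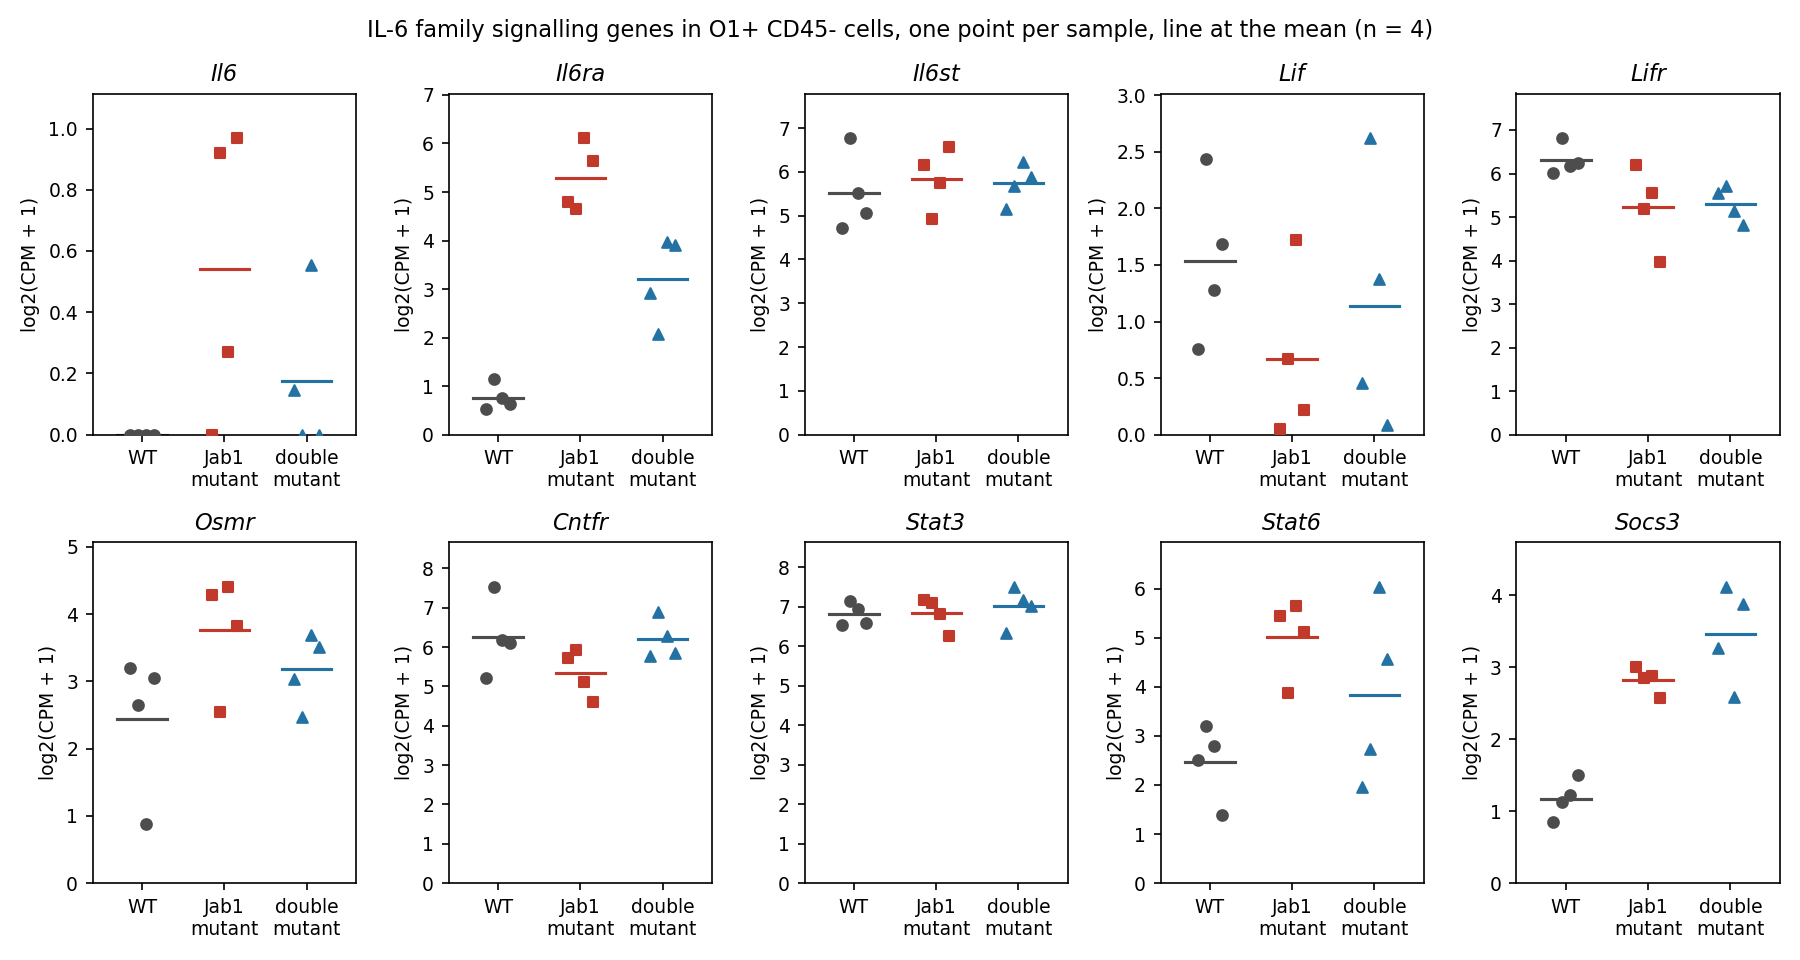
Level of each of the 10 genes as log2(CPM + 1) on the vertical axis, with 1 point per sample, a line at the mean of 4 samples and the 3 genotypes side by side (circles WT, squares Cnp-Cre Jab1fl/fl, triangles double mutants). The squares of Il6ra, Stat6 and Socs3 lie above all circles, and those of Il6st lie within the range of the circles.

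Among the ligands, Il6 (chr5:30013114-30019981, forward strand) encodes the founding cytokine of the family, which cells secrete in response to damage and inflammation. It had 0 counts in every WT sample, which allows up to 3 counts in their 471783996 together, or 0.00656 CPM. In Cnp-Cre Jab1fl/fl replicates 1 to 4 it had 0, 107, 14 and 71 counts. In double mutant replicates 1, 2, 3 and 5 it had 10, 0, 48 and 0 counts. Il6 was thus present in 3 of 4 and in 2 of 4 mutant libraries, at no more than 0.958 CPM in any of them. Taken over each group and against the limit for WT, its level was at least 86.1-fold higher in Cnp-Cre Jab1fl/fl and at least 21.2-fold higher in double mutants, bounds that cover counting error only. Mutant libraries at 0 overlapped with WT. In edgeR without the filter on low counts, the adjusted p was 0.115 for Cnp-Cre Jab1fl/fl against WT, 0.37 for double mutants against WT and 0.83 between the mutants.

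Lif (chr11:4257557-4272514, forward strand), leukemia inhibitory factor, is a ligand for the pair of Lifr and gp130. It had 0.691, 4.40, 1.43 and 2.22 CPM in WT replicates 1, 3, 5 and 6. Cnp-Cre Jab1fl/fl replicates 1 to 4 had 0.0383, 0.593, 2.29 and 0.162 CPM. In double mutants it had 0.375, 5.16, 1.59 and 0.0630 CPM. The 3 groups overlapped, and within each mutant group the samples spanned from near 0 to above the WT median. Against WT, the log2 fold change of Lif was −1.50 (SE 1.25, adjusted p 0.532, edgeR) for Cnp-Cre Jab1fl/fl and −0.29 (SE 1.21, adjusted p 0.949) for double mutants.

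Il6ra (chr3:89864059-89913196, reverse strand) encodes the private receptor that gives a cell its response to IL-6, and it showed the highest fold change of the 9 tested members. It had 0.445, 1.20, 0.694 and 0.543 CPM in WT replicates 1, 3, 5 and 6, from 49 to 185 counts. In Cnp-Cre Jab1fl/fl replicates 1 to 4 it had 26.7, 23.9, 68.2 and 49.0 CPM, from 2091 to 4618 counts. Double mutant replicates 1, 2, 3 and 5 had 6.55, 3.19, 14.6 and 14.1 CPM. The 3 groups did not overlap at any point: every Cnp-Cre Jab1fl/fl sample was above every double mutant sample, and every double mutant sample was above every WT sample. Il6ra rose 57.9-fold in Cnp-Cre Jab1fl/fl against WT (log2 fold change 5.86, SE 0.56, adjusted p 0.000455, edgeR), and the adjusted p ranged from 2.47e-29 to 0.00301 over the alternatives. Reads from Gm42809, which overlaps Il6ra on the other strand, were at 5 counts or fewer in each library but double mutant replicate 1, which had 130.

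Lifr (chr15:7090614-7197489, forward strand) encodes the receptor chain that LIF and CNTF share. It had 64.0, 112, 70.6 and 74.1 CPM in WT replicates 1, 3, 5 and 6. Cnp-Cre Jab1fl/fl replicates 1 to 4 had 72.4, 35.3, 46.2 and 14.6 CPM, and replicate 1 lay within the WT range. Double mutant replicates 1, 2, 3 and 5 had 46.3, 51.2, 34.0 and 27.0 CPM, all below WT, a pattern found in 3.58% of all genes in that comparison. For Lifr the log2 fold change was −0.93 (SE 0.43, adjusted p 0.228, edgeR) in Cnp-Cre Jab1fl/fl and −1.03 (SE 0.31, adjusted p 0.21) in double mutants against WT. DESeq2 called the latter (adjusted p 0.0485), and the main test did not.

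Osmr (chr15:6813577-6874969, reverse strand), the oncostatin M receptor, lies on the same chromosome as Lifr, in the opposite orientation. It had 0.843 to 8.19 CPM in WT, 4.81 to 20.3 CPM in Cnp-Cre Jab1fl/fl and 4.56 to 11.9 CPM in double mutants. WT replicate 5 was the lowest library and the other 3 WT samples lay within the mutant range. Osmr had a log2 fold change of 1.40 (SE 0.71, adjusted p 0.273, edgeR) in Cnp-Cre Jab1fl/fl against WT, with a 95% interval from −0.15 to 2.94.

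Cntfr (chr4:41657498-41697089, reverse strand) encodes the membrane-anchored receptor for CNTF. It had 36.2 to 185 CPM in WT, 23.4 to 60.2 CPM in Cnp-Cre Jab1fl/fl and 53.6 to 117 CPM in double mutants. WT replicate 3, the library with the most counts, was at 185 CPM and the other 3 WT samples at 36.2 to 71.4 CPM. That library also had the highest sum of 11 astrocyte markers (15260 CPM). Its log2 fold change in Cnp-Cre Jab1fl/fl against WT was −1.09 (SE 0.49, adjusted p 0.209, edgeR), and it was −0.49 without WT replicate 3.

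Il6st (chr13:112464070-112510086, forward strand), the gene of gp130, is the chain on which the receptors of the family converge. It had 52.7 ± 38.0 CPM in WT (SD, n = 4), 61.4 ± 27.0 CPM in Cnp-Cre Jab1fl/fl and 54.2 ± 16.4 CPM in double mutants. The samples of the 3 groups overlapped throughout, with WT replicate 3 the highest library at 108 CPM. For Il6st the log2 fold change in Cnp-Cre Jab1fl/fl against WT was 0.22 (95% interval −0.84 to 1.29, adjusted p 0.842, edgeR), an interval that includes differences of more than the 1.17-fold fitted in either direction, and it was 0.83 without WT replicate 3.

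Stat3 (chr11:100885098-100939540, reverse strand) encodes the transcription factor that most IL-6 family receptors activate. It had the narrowest interval of the members in Cnp-Cre Jab1fl/fl against WT. Its level was 113 ± 22.9 CPM in WT (SD, n = 4), 117 ± 30.4 CPM in Cnp-Cre Jab1fl/fl and 134 ± 42.3 CPM in double mutants, and the groups overlapped. The log2 fold change was 0.05 (95% interval −0.59 to 0.69, adjusted p 0.949, edgeR) in Cnp-Cre Jab1fl/fl and 0.23 (95% interval −0.46 to 0.92, adjusted p 0.808) in double mutants against WT. The end of Stat3 overlaps Stat5a on the other strand, and STAT3 is controlled by phosphorylation, which RNA-Seq does not measure.

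Stat6 (chr10:127642986-127660957, forward strand) was the second member that rose. It had 4.71, 8.13, 5.96 and 1.63 CPM in WT replicates 1, 3, 5 and 6. Cnp-Cre Jab1fl/fl replicates 1 to 4 had 42.4, 13.7, 49.1 and 33.5 CPM, all above WT. Double mutant replicates 1, 2, 3 and 5 had 2.86, 5.68, 64.9 and 22.7 CPM, so that 2 of them lay within the WT range and replicate 3 was the highest of all 12 libraries. Stat6 rose 6.78-fold in Cnp-Cre Jab1fl/fl against WT (log2 fold change 2.76, SE 0.56, adjusted p 0.0147, edgeR). With all 12 samples in one fit, the adjusted p was 0.0698 at the same fold change, and with single libraries left out it was at most 0.0448. Stat6 overlaps Nab2 on the other strand, which had at most 513 counts in any library.

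Socs3 (chr11:117966079-117970047, reverse strand) encodes the feedback inhibitor of gp130 signalling and is itself a target of STAT3. It had 0.800, 1.19, 1.33 and 1.83 CPM in WT replicates 1, 3, 5 and 6. Cnp-Cre Jab1fl/fl replicates 1 to 4 had 6.99, 6.18, 6.34 and 4.96 CPM. Double mutant replicates 1, 2, 3 and 5 had 8.58, 16.4, 4.98 and 13.7 CPM. Both mutant groups lay above all WT samples and overlapped with each other. Its stretch printed above, before the RefSeq start but within the GENCODE span, is the one with the STAT motif. The log2 fold change in Cnp-Cre Jab1fl/fl against WT was 2.25 (SE 0.69, adjusted p 0.0743, edgeR), and the adjusted p was 0.00807 with DESeq2, 0.0412 with all 12 samples in one fit and 0.0367 with limma-voom. It was 0.15 without the filter on low counts, 0.488 with the replicate block and 0.0894 to 0.163 with single libraries left out. Those fits did not call Socs3. In this comparison the replicate block rests on the replicate numbers that both groups share, 1 and 3. A call lost under it, here and below, cannot be told from a loss of samples.

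Double mutants were compared with WT to ask how the family stood when p21CIP1 was lacking as well. This comparison shares its WT samples with the one above. Of the 9 members, 0 rose and 0 fell (edgeR), beside 0.175% and 0.0169% of all genes. At an unadjusted p below 0.05 there were 3 higher (Il6ra, Stat6 and Socs3) and 1 lower (Lifr), beside 7.82% and 4.57% of all genes. DESeq2 called 2 higher (Il6ra and Socs3) and 1 lower (Lifr), beside 3.74% and 1.12% of all genes, limma-voom called 0 in each direction, beside 0.214% and 0.0508% of all genes, and without double mutant replicate 1 edgeR called 2 higher, Il6ra (adjusted p 0.0455) and Socs3 (adjusted p 0.0497). All double mutant samples were above WT for 2 members, Il6ra and Socs3, a pattern of 4.52% of all genes. Il6ra had a log2 fold change of 3.73 (SE 0.74, adjusted p 0.0874) and Socs3 of 3.07 (SE 0.62, adjusted p 0.0874). For Stat6 it was 2.23 (SE 0.90, adjusted p 0.338), and 1.03 without double mutant replicate 3. The adjusted p of the remaining members was at least 0.21.

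The mutants were compared with each other to ask whether the absence of p21CIP1 altered the family in the sorted cells of Jab1 mutants. Of the 9 members, 0 differed (edgeR), as did 0% of all genes in each direction, and at an unadjusted p below 0.05 there was 1, Il6ra, which was lower, beside 3.25% of all genes. DESeq2 called 1 lower, Il6ra, and 0 higher, beside 0.378% and 0.113% of all genes, and limma-voom called 0 members, beside 0% higher and 0.00564% lower. The 4 double mutant samples of Il6ra lay below the 4 of Cnp-Cre Jab1fl/fl, a pattern of 1.99% of all genes, with a log2 fold change of −2.13 (SE 0.56, 95% interval −3.37 to −0.89, unadjusted p 0.00311, adjusted p 0.713, edgeR). DESeq2 gave −2.10 with an adjusted p of 0.0468. The fold change of Socs3 was 0.83 on the log2 scale (95% interval −0.40 to 2.07) and that of Stat6 was −0.53 (95% interval −2.34 to 1.28), so Socs3 had no lower fitted level in double mutants. For 0 members did all double mutant samples lie above Cnp-Cre Jab1fl/fl, beside 1.22% of all genes.

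**Figure D2:**
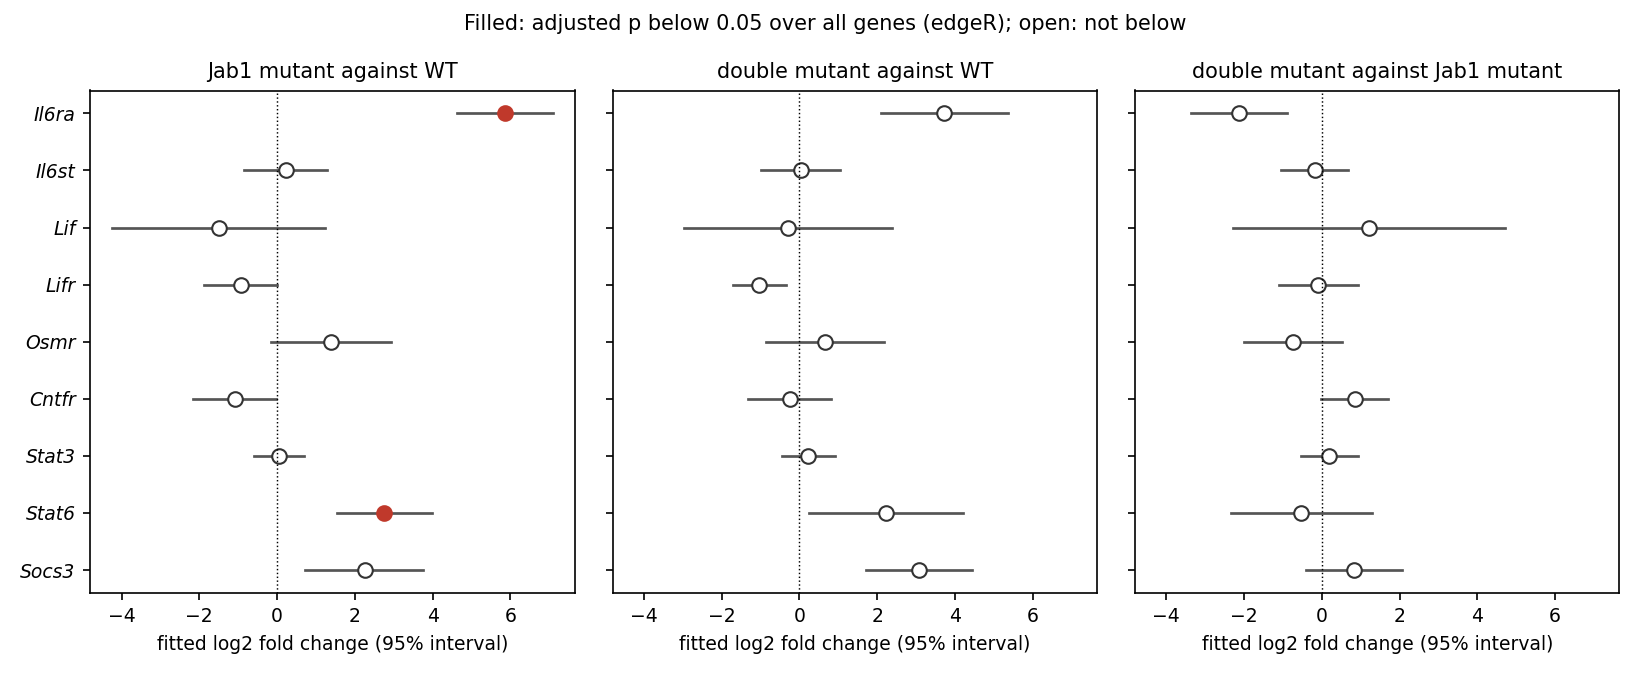
Fitted log2 fold change of the 9 tested members on the horizontal axis with its 95% interval, for the 3 comparisons side by side. Filled points passed an adjusted p of 0.05: Il6ra and Stat6 in Cnp-Cre Jab1fl/fl against WT, and none of those in the other panels.

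Set side by side per kb of exon, so that genes of unequal length can be compared, Cntfr and Stat3 led in every genotype. In WT the mean level was 43.8 ± 31.7 CPM per kb for Cntfr (SD, n = 4), 18.2 ± 3.68 for Stat3, 7.71 ± 2.06 for Lifr and 4.80 ± 3.46 for Il6st. Stat6, Osmr, Lif and Socs3 followed at 1.35 to 0.504 CPM per kb, then Il6ra at 0.0834 ± 0.0388. Neighbours in this order overlapped in mean ± SD except Stat3 above Lifr, Socs3 above Il6ra and Il6ra above Il6. In Cnp-Cre Jab1fl/fl, Stat6 came next after Stat3 at 9.19 ± 4.08, Il6ra stood between Il6st and Lifr at 4.86 ± 2.40 CPM per kb, and Lif was last at 0.190 ± 0.257. There the breaks between neighbours were Stat3 above Stat6 and Socs3 above Il6. In double mutants, Socs3 stood between Il6st and Lifr at 4.27 ± 2.0 and Il6ra between Osmr and Lif at 1.11 ± 0.652 CPM per kb, with breaks at Stat3 above Stat6 and Lifr above Osmr. The ligands were thus lowest in both mutant groups, and in WT Il6 was last while Lif stood above Socs3 and Il6ra. The shared chain Il6st was near the middle of the family in all 3 genotypes.

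Markers of microglia, the resident macrophages of the brain, rose beside Il6ra and Stat6 in Cnp-Cre Jab1fl/fl against WT. Between the mutants, the 20 markers had a median log2 fold change of 1.37 and Il6ra had −2.13, with 0 of them called (edgeR). The markers summed to 23650 CPM in double mutant replicate 3 and to 532, 1145 and 2638 CPM in replicates 1, 2 and 5. In Cnp-Cre Jab1fl/fl replicates 1 to 4 they summed to 3415, 1374, 2277 and 3448 CPM. The median without double mutant replicate 3 was not computed. Of 20 microglia markers, 18 rose in Cnp-Cre Jab1fl/fl against WT and 0 fell, and 0 were at 0 in any genotype. Ptprc, the gene of CD45 against which the cells were sorted, had at most 141 counts in a WT library, between 3811 and 7296 counts in those of Cnp-Cre Jab1fl/fl and between 393 and 10379 counts in those of double mutants. In double mutant replicate 3, where the microglia markers summed to 23650 CPM, Stat6 was at its highest, whereas Il6ra at 14.6 CPM was close to the 14.1 CPM of replicate 5, whose marker sum was 2638 CPM. Socs3 in replicate 3 was the lowest of the double mutants. Endothelial markers also rose (6 of 10, summed to 360.1 to 762 CPM in WT, 795 to 5687 CPM in Cnp-Cre Jab1fl/fl and 685 to 5329 CPM in double mutants), as did 3 of 11 mural cell and fibroblast markers (165 to 389, 335 to 1170 and 141 to 839 CPM). Of the T cell markers, 1 of 2 tested rose, with sums over the list of 0.0435 to 0.556 CPM in WT, 1.55 to 21.8 CPM in Cnp-Cre Jab1fl/fl and 0.556 to 7.76 CPM in double mutants. Of the border macrophage markers, 1 of 4 tested rose, with sums of 3.80 to 7.71, 4.23 to 13.2 and 3.35 to 45.4 CPM. Neutrophil and monocyte markers, of which 0 of 1 tested was called (edgeR; 1 higher at an unadjusted p below 0.05), summed to 0.625 to 2.14, 1.99 to 17.4 and 2.30 to 103 CPM. In every genotype the highest sum of each of these immune cell lists was below the lowest sum of the microglia markers. Of markers of oligodendrocyte progenitors 1 of 7 rose, and of neuron markers 0 of 10 (edgeR; 3 higher at an unadjusted p below 0.05). Mature oligodendrocyte markers fell (9 of 14). Of 11 astrocyte markers 0 were called (edgeR; 3 lower at an unadjusted p below 0.05), with 0 fitted above 0 and a median log2 fold change of −0.72. Their sums were 6064 to 15260 CPM in WT, 3908 to 9276 CPM in Cnp-Cre Jab1fl/fl and 4331 to 11920 CPM in double mutants. The part of other cells in the values of Il6ra, Stat6, Socs3 and the other members, Cntfr and Lifr among them, was not tested.

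**Figure D3:**
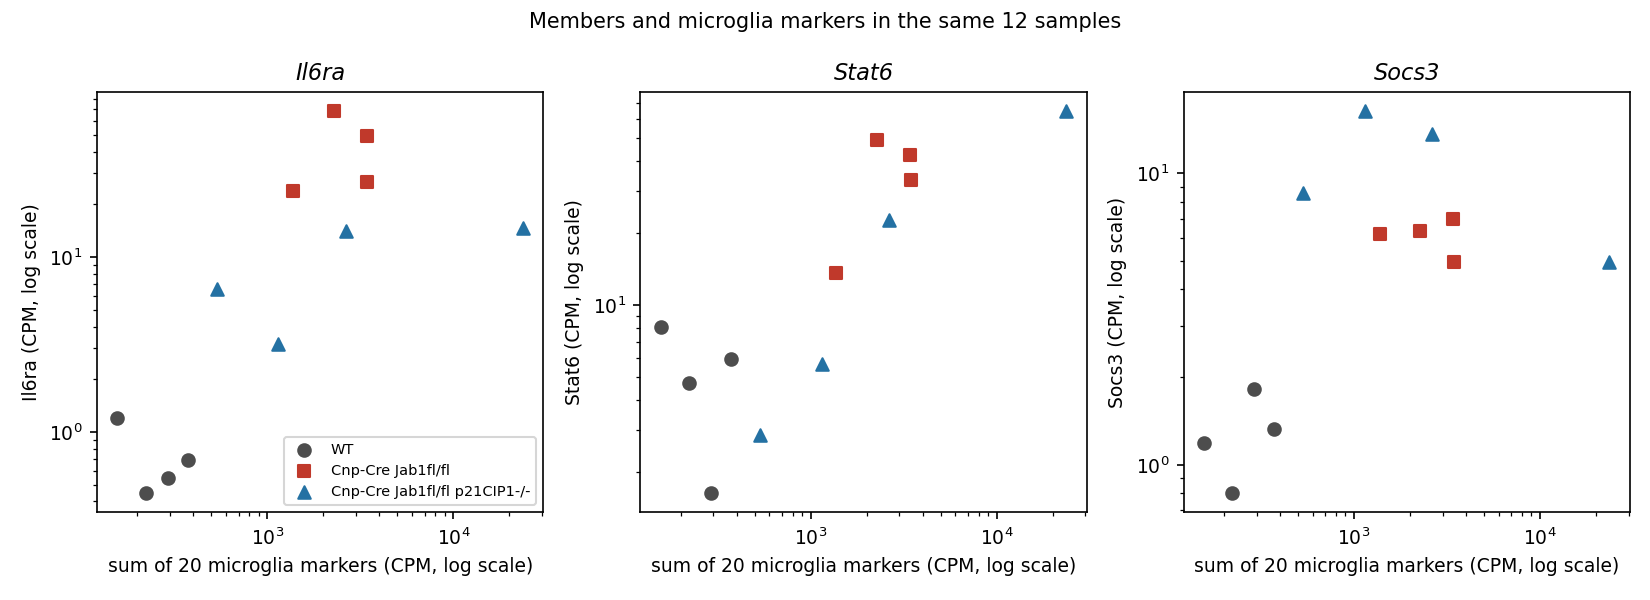
Level of Il6ra, Stat6 and Socs3 in CPM (vertical axis, log scale) against the summed CPM of 20 microglia markers (horizontal axis, log scale), 1 point per sample, with circles for WT, squares for Cnp-Cre Jab1fl/fl and triangles for double mutants. The triangle farthest to the right in each panel is double mutant replicate 3, the highest library for Stat6 and the lowest double mutant for Socs3.

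The genes whose profiles over the 12 samples were most like those of the members were named by the root mean square difference of standardized log2(CPM + 1) values, for which the median over 17715 genes was 1.33 to 1.38 SD. The genes closest to Il6ra were Adap2 (0.122 SD), Pik3cd (0.196 SD) and Gm27201 (0.202 SD). Stat6 was nearest to Fermt3 (0.28 SD), Slco2b1 (0.308 SD) and Gm39556 (0.314 SD). Socs3 was nearest to Pim1 (0.345 SD), Gm26834 (0.412 SD) and Map1b (0.413 SD). The order of likeness names genes by their values alone. For members without a call, the nearest were Sipa1l2, Morc2a and Zfp423 for Il6st (0.377 to 0.484 SD), Tmem80, Ikzf2 and Cntn1 for Lifr (0.289 to 0.329 SD), and Zfp575, Aagab and Kdelr1 for Stat3 (0.408 to 0.44 SD). Pim1, a kinase gene, was also in the list of STAT3 targets, with 0.218 to 1.42 CPM in WT, 2.87 to 11.3 CPM in Cnp-Cre Jab1fl/fl and 7.40 to 20.4 CPM in double mutants. These likenesses describe 12 samples of 3 genotypes and unequal depth and carry no test.

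The other genes of the pathway were taken from 5 lists, of which 54 genes passed the filter. In Cnp-Cre Jab1fl/fl against WT, 11 rose and 1 fell, beside 5.19% and 2.46% of all genes, and 37 of 54 had a fitted fold change above 0. Their median log2 fold change was 0.49, beside 0.02 over all genes.

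Of 5 other ligands tested, 1 rose and 0 fell (median 0.64). It was Clcf1, a ligand of the CNTF receptor, with 0, 1, 2 and 0 counts in WT replicates 1, 3, 5 and 6 and 144, 698, 97 and 113 counts in Cnp-Cre Jab1fl/fl replicates 1 to 4 (adjusted p 0.0094, edgeR). Summed over the groups and per depth, this is a ratio of 472 with a 95% counting interval from 161 to 2290. The replicate block, which rests on replicates 1 and 3 here, did not call Clcf1 (adjusted p 0.177, edgeR). Cntf, ciliary neurotrophic factor, overlapped between groups (log2 fold change 1.18, SE 0.84, adjusted p 0.456). Osm, oncostatin M, was below the filter, with 0 counts in all WT samples, 130, 85, 54 and 0 counts in Cnp-Cre Jab1fl/fl, and 2786 counts in double mutant replicate 3 beside 0 in the other double mutants.

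Of 6 other receptors and shedding enzymes, 0 rose and 0 fell (edgeR, median 0.71), with 2 higher at an unadjusted p below 0.05, Il2rg and Il13ra1. Il2rg, the common gamma chain of several interleukin receptors, had a log2 fold change of 2.32 (SE 0.69, adjusted p 0.0655). All 4 of its mutant samples were above WT, a pattern of 9.9% of all genes. Il13ra1, a chain of the receptor through which IL-13 activates STAT6, had a log2 fold change of 1.65 (SE 0.62, adjusted p 0.14). DESeq2 called Il2rg, at an adjusted p of 0.00597. The 2 genes were chosen after their values were seen.

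Among the Janus kinases, Jak3, the partner of the common gamma chain, rose 21.7-fold (log2 fold change 4.44, SE 0.67, adjusted p 0.00439, edgeR), with 0.489 to 2.41 CPM in WT and 15.1 to 40.9 CPM in the mutants. The kinases that gp130 uses had log2 fold changes of −0.25 for Jak1, −0.49 for Jak2 and 0.01 for Tyk2, with adjusted p values of 0.744, 0.469 and 0.986.

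Of 18 inhibitors and adaptors, 3 rose and 1 fell (median 0.09). Ptprc, the phosphatase CD45 that is found on leukocytes, rose 143-fold (log2 fold change 7.16, SE 1.29, adjusted p 0.00889, edgeR). Ptpn6, the phosphatase SHP-1 of blood and immune cells, rose 27.6-fold (log2 fold change 4.79, SE 1.01, adjusted p 0.0172), and Cish, a SOCS family inhibitor, rose 6.53-fold (log2 fold change 2.71, SE 0.62, adjusted p 0.0239). Gab1, an adaptor that links gp130 to the MAP kinase pathway, fell to 0.275 of its WT level (log2 fold change −1.86, SE 0.46, adjusted p 0.0323), with 118 to 414 CPM in WT and 33.5 to 88.1 CPM in the mutants. The last 3 calls each depended on single libraries. Ptpn6 was lost without WT replicate 3 (adjusted p 0.0626), Cish without WT replicate 3, 5 or 6 or Cnp-Cre Jab1fl/fl replicate 1 (0.0513 to 0.0714), and Gab1 without WT replicate 3 or 5 or Cnp-Cre Jab1fl/fl replicate 1 or 3 (0.0721 to 0.0861). Cish and Gab1 were also lost with the replicate block, which rests on replicates 1 and 3 here (adjusted p 0.484 and 0.0633). Cish was lost as well without the filter on low counts (0.0535) and with all 12 samples in one fit (0.0503).

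Of 17 STAT3 target genes, 5 rose and 0 fell (median 2.11), and 9 were higher at an unadjusted p below 0.05. Among all genes, 5.19% rose and 13.2% were higher at an unadjusted p below 0.05. Of these targets, 15 of 17 had a fitted fold change above 0. Cebpb, a transcription factor of the acute-phase response, rose 5.82-fold (log2 fold change 2.54, SE 0.48, adjusted p 0.011, edgeR). Junb, an AP-1 transcription factor, rose 4.96-fold (2.31, SE 0.45, adjusted p 0.0117). Vim, the intermediate filament of many non-neuronal cells, rose 4.32-fold (2.11, SE 0.42, adjusted p 0.0132). Timp1, an inhibitor of metalloproteinases, had 0 or 1 counts in each WT sample and 307, 310, 611 and 0 counts in Cnp-Cre Jab1fl/fl replicates 1 to 4 (adjusted p 0.022), a ratio of 826 with a 95% counting interval from 228 to 6830. Cebpd, the remaining gene that rose, was named after its value was seen (2.17, SE 0.50, adjusted p 0.0247). The call of Timp1 was lost without any 1 of the WT samples or without Cnp-Cre Jab1fl/fl replicate 3 (adjusted p 0.0535 to 0.0692), and that of Cebpd without WT replicate 3, 5 or 6 or Cnp-Cre Jab1fl/fl replicate 1 or 4 (0.0582 to 0.0752). With the replicate block, the calls of Cebpb (adjusted p 0.28), Vim (0.229), Timp1 (0.061) and Cebpd (0.215) were lost and that of Junb stayed. The block rests on replicates 1 and 3 here, so these losses cannot be told from a loss of samples. Timp1 was not called by limma-voom either (0.23). Several of these genes also respond to other pathways, and the part of the microglia and endothelial cells, whose markers rose in the same samples, was not tested.

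In double mutants against WT, 0 of the 54 pathway genes rose and 0 fell (edgeR), with 12 higher and 1 lower at an unadjusted p below 0.05, beside 7.82% and 4.57% of all genes. DESeq2 called 9 higher and 0 lower, beside 3.74% and 1.12% of all genes, limma-voom 1 higher, and edgeR called 5 higher without double mutant replicate 1. The median log2 fold change was 0.72, beside 0 over all genes. For the STAT3 targets it was 1.70, and all double mutant samples lay above WT for 6 of the 17, beside 4.52% of all genes, among them Pim1 (log2 fold change 3.86, SE 0.72, adjusted p 0.0783) and Junb (2.59, SE 0.55, adjusted p 0.0925), chosen after their values were seen. Of the 54 pathway genes, 1 lay below WT in all 4 double mutant samples, beside 3.58% of all genes. It was Jak2, one of the kinases that gp130 uses (−1.17, SE 0.37, adjusted p 0.225, edgeR), also chosen after its value was seen. Between the mutants, 0 of 54 differed (edgeR), with 0 higher and 2 lower at an unadjusted p below 0.05, Cebpb (−1.31, SE 0.56) and Cebpd (−1.17, SE 0.45), beside 1.75% and 3.25% of all genes. DESeq2 and limma-voom called 0.

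**Figure D4:**
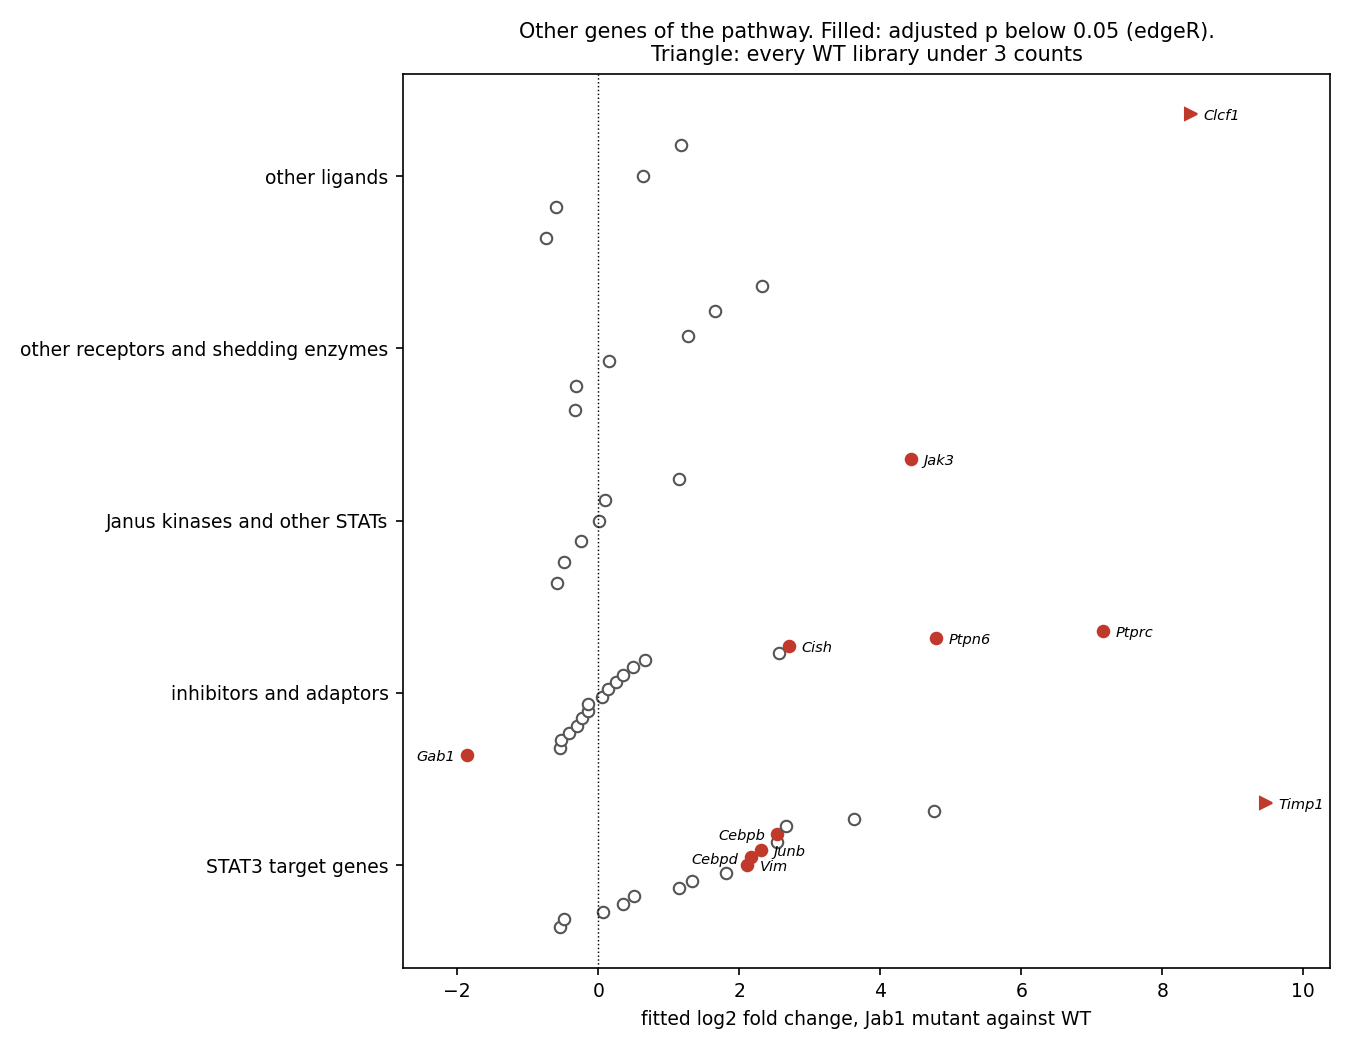
Fitted log2 fold change in Cnp-Cre Jab1fl/fl against WT (horizontal axis) of pathway genes that passed the filter, 1 point per gene, in 5 rows by list and sorted within a row. Filled points passed an adjusted p of 0.05 and are named, and the triangles of Clcf1 and Timp1 mark genes whose WT libraries held under 3 counts each, so that their place on the axis depends on the fit.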

How the data were processed

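Per the labels and the study's methods, RNA of sorted cells was amplified with a SMART-Seq v4 kit and sequenced as paired ends. Per the submitters' processing notes, reads were trimmed with Trimmomatic 0.32, aligned to GRCm38 with STAR 2.5.3a and counted with featureCounts. Whether counting used strand is not given in the sources used here. The authors deposited raw counts, 1 row per gene symbol, for 12 samples, and 0 columns were left unused.

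From the counts, CPM with TMM factors of all 12 samples were computed. Genes were tested by quasi-likelihood in edgeR 4.0.16 (limma 3.58.1, R 4.3.3) on the 8 samples of a comparison. The test covered 17716 genes that reached 1 CPM in 4 or more samples. A gene was called at a Benjamini-Hochberg adjusted p below 0.05. SEs are the fold change over the root of the test statistic, and 95% intervals use the t distribution of the fit. Intervals and limits of counts cover counting error only, since reads carry no molecular identifiers. Samples of 1 genotype came from separate pairs of brains and differed by far more than sampling noise, so none was taken as a repeat. The scripts were tested on simulated data. Positions and exon lengths came from GENCODE M21 (GRCm38), promoters from RefSeq (GRCm38.p6).

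Named were all 10 members, the called genes of each pathway list (at most 4 by adjusted p), the 3 nearest profiles of the called members and of Il6st, Lifr, Stat3 and Socs3, and Cops5 and Cdkn1a. Single-gene results of some list genes are left out of this text. Members and lists were chosen with earlier results of these data known. The alternatives were DESeq2 1.42.0, RLE and upper-quartile factors, no filter, a fit over all 12 samples, a replicate block, limma-voom with quality weights per sample, and leaving out each sample in turn.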

Additional observations from a re-analysis of the deposited data

How the results depend on the processing

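Of the members' fold changes under the alternatives, 367 kept their direction and side of the threshold, 1 lost its call, 11 gained one and 26 changed sign, all of the last uncalled. Without the filter on low counts, the log2 fold change was −0.06 for Stat3 in Cnp-Cre Jab1fl/fl and −0.03 for Il6st in double mutants against WT, and limma-voom gave 0.30 for Cntfr in double mutants against WT. With single libraries left out, the values against WT ran from −0.07 to 0.83 for Il6st and from −0.07 to 0.19 for Stat3 in Cnp-Cre Jab1fl/fl, and in double mutants from −0.20 to 0.65 for Il6st, −1.66 to 0.30 for Lif and −0.52 to 0.36 for Cntfr. Between the mutants they ran from −0.41 to 0.12 for Il6st, −0.19 to 2.76 for Lif and −0.34 to 0.33 for Lifr.

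In Cnp-Cre Jab1fl/fl against WT, DESeq2 called 17 pathway genes higher in place of 11, and leaving out single libraries left 0 to 1 lower. In double mutants against WT, in place of 0, DESeq2 called 2 members higher and 1 lower and 9 pathway genes higher, all 12 samples in one fit called 2 members and 3 pathway genes higher, limma-voom called 1 pathway gene higher, and leaving out single libraries gave 0 to 2 members and 0 to 5 pathway genes higher. Between the mutants, DESeq2 called 1 member lower. The cause was not tested.

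Over all genes, 919 rose and 435 fell in Cnp-Cre Jab1fl/fl against WT, beside 1687 and 1002 with DESeq2 and 581 and 322 without the filter. In double mutants against WT, 31 rose and 3 fell, beside 663 and 199 with DESeq2, 157 and 7 with all 12 samples in one fit, 38 and 9 with limma-voom and 20 and 1 without the filter. Between the mutants, DESeq2 called 20 higher and 67 lower and limma-voom 0 and 1, where edgeR called 0.

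Samples with the same replicate number deviated from their group means with correlations of −0.19 to 0.08 over genes, so the numbers were not taken to pair samples. Cnp-Cre Jab1fl/fl and WT share the numbers 1 and 3, double mutants and WT 1, 3 and 5, and the mutants 1, 2 and 3. Fold changes under the block rest on those samples alone, so a call lost under it cannot be told from a loss of samples. With the replicate block, 5 pathway genes rose and 0 fell in Cnp-Cre Jab1fl/fl against WT, 420 and 240 of all genes did so, and in double mutants 1 and 0 of all genes. The log2 fold change under the block was −0.05 for Stat3 in double mutants against WT, and between the mutants 0.09 for Il6st and −0.02 for Stat3. The block left Il6ra (adjusted p 0.000973) and Stat6 (adjusted p 0.0452) called in Cnp-Cre Jab1fl/fl.

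Libraries held 61485556 counts or more, and Il6, with at most 107 counts in any of them, was not part of the main test.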
